A study of Mus musculus with 2 samples.

Results

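The 9 tubulin genes described here are Tuba1a, Tuba1b and Tuba1c, which encode alpha-tubulins, and Tubb2a, Tubb2b, Tubb3, Tubb4b, Tubb5 and Tubb6, which encode beta-tubulins. They were picked by symbol from the 32285 genes listed in the count tables, and each symbol matched 1 gene. Their transcripts were counted in single cells of E14, a mouse embryonic stem cell line of 129/Ola background, cultured in serum with leukaemia inhibitory factor. One library, named control, came from cells given a control small interfering RNA (siRNA). The other, named sonKD, came from cells given siRNA against Son, whose product is an RNA-binding protein of nuclear speckles. Both were transfected with Lipofectamine2000, a lipid reagent, harvested 24 hours later, frozen, thawed and sorted for cells that exclude the dye 7-AAD before droplet barcoding. Cells were barcodes with no fewer than 2500 UMIs (unique molecular identifiers, each marking 1 captured molecule) and 1000 genes, of whose UMIs no more than 10% were mitochondrial.

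Alpha- and beta-tubulin form a heterodimer, and dimers assemble head to tail into microtubules, which carry intracellular transport and build the mitotic spindle. Each family has several genes whose proteins, called isotypes, are nearly alike apart from a short acidic tail. In dividing cells tubulin mRNA is also adjusted to need, because excess free dimer triggers decay of tubulin mRNA on ribosomes through the adaptor TTC5.

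The rule kept 4978 control cells with a median of 7737.5 UMIs and 2731 sonKD cells with a median of 11612 UMIs. Of the barcodes past the UMI and gene minimums, 11.2% (95% interval 10.3 to 12.01) in control and 27.9% (26.5 to 29.3) in sonKD were left out for mitochondrial UMIs. The 2 libraries shared 2 cell barcodes, or 0.0402% of control and 0.0732% of sonKD cells. Son itself stood at 169 CPM (counts per 1000000 UMIs) in control and 106 CPM in sonKD, 62.7% of control. All 10 stem cell markers examined, Pou5f1, Sox2 and Nanog among them, were above 10 CPM in both libraries. Of 12 neural markers, examined because several tubulin genes are also neuronal, 3 were above 10 CPM in both (Stmn2, Ncam1 and Gap43) and the neuronal gene Dcx had 0 UMIs in both, which allows up to 0.0733 CPM in control and 0.0937 CPM in sonKD by a limit of 3 counts. The neural list summed to 572 CPM in control and 528 CPM in sonKD. Fibroblast markers summed to 4.60 and 4.71 CPM, with Col3a1, Postn and Lum at 0 in both. Primitive endoderm markers summed to 6.48 and 5.28 CPM, and trophectoderm markers to 61.1 and 80.6 CPM, mostly from the keratin genes Krt8 and Krt18. The part of other cell states in the tubulin values was not tested. Each group held 1 library, so no test was made, every interval covers counting error only, and the knockdown and the library cannot be told apart.

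Tubulin mRNA in these cells came mainly from 2 beta genes. The 9 genes together made up 0.297% of the UMIs of control and 0.253% of those of sonKD. Their totals ran from 668 UMIs (Tubb2a in sonKD) to 44263 UMIs (Tubb5 in control). Tubb5, the main beta-tubulin gene of proliferating cells, was highest at 1082 CPM (1072 to 1092) in control and 961 CPM (950 to 972) in sonKD. Tubb4b, a broadly expressed beta gene also used in cilia, followed at 864 CPM (855 to 873) and 830 CPM (820 to 840). Tuba1b, the broadly expressed alpha gene, stood at 415 CPM (409 to 421) in control and 306 CPM (300 to 312) in sonKD. These levels are UMIs captured at transcript 3' ends, 1 per molecule, and were not divided by length.

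A middle tier held Tubb2b and Tuba1a, both best known from developing neurons. Tubb2b was at 281 CPM (275 to 286) in control and 202 CPM (197 to 207) in sonKD. Tuba1a was at 145 CPM (141 to 149) and 78.2 CPM (75.2 to 81.4), so its sonKD level lay far below its control level. The low tier held 4 genes. Tuba1c, an alpha gene of dividing cells, was at 64.6 CPM (62.2 to 67.1) and 41.8 CPM (39.6 to 44.1). Tubb6 was at 45.4 CPM (43.4 to 47.5) and 44.7 CPM (42.4 to 47.1), and Tubb3, the beta gene used as a neuron marker, was at 43.9 CPM (41.9 to 46.0) and 42.5 CPM (40.2 to 44.8). Tubb2a, the close relative of Tubb2b, was lowest at 30.9 CPM (29.2 to 32.7) and 20.9 CPM (19.3 to 22.5). In order of level, Tubb6 and Tubb3 overlapped in their intervals in control, and Tubb6, Tubb3 and Tuba1c did so in sonKD. All other neighbours in the order were apart by more than counting error.

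**Figure D1:**
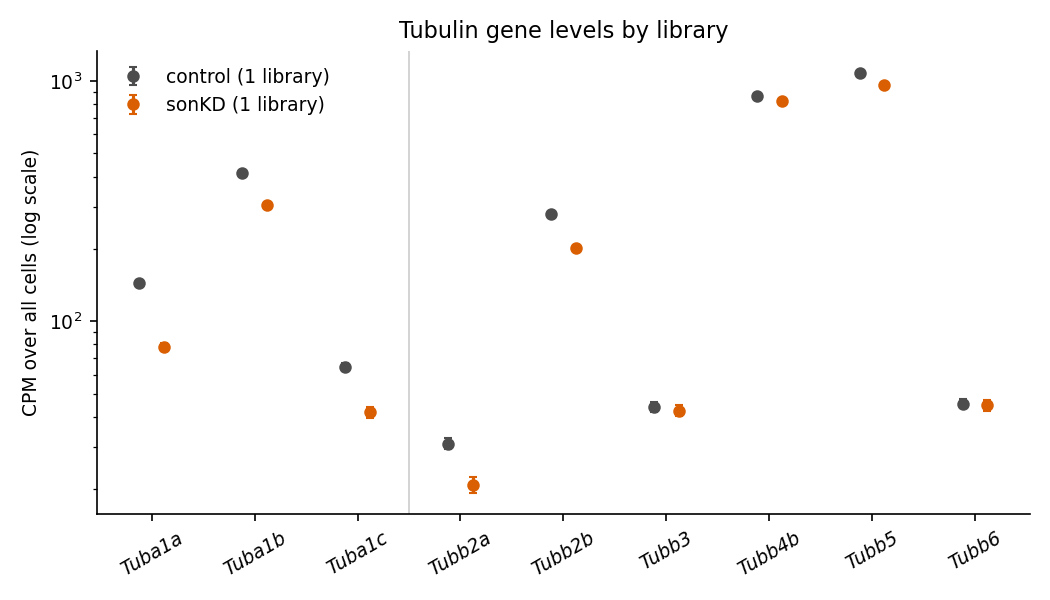
Level of each tubulin gene in CPM (log axis) over all cells of the control library (grey) and the sonKD library (orange), with 95% counting intervals. Tuba1a shows the widest gap, 145 against 78.2 CPM, while the Tubb3 and Tubb6 points of both libraries overlap.

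The difference between libraries was unequal among isotypes. All 3 alpha genes were lower in sonKD, together at 68.2% of control (66.8 to 69.6), a log2 ratio of -0.55 (-0.58 to -0.52). The 6 beta genes together were at 89.5% of control (88.7 to 90.4), a log2 ratio of -0.16. For scale, the median log2 ratio of all 8063 genes whose mean over both libraries reached 10 CPM was -0.12, with a 5th percentile of -0.40 and a 95th of 0.25.

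A gene is called lower or higher below where its log2 ratio reached 0.32 in size. Of the 9 genes, 5 were lower in sonKD and 0 higher by this measure, where 10.2% of all genes were lower, 3.5% higher and 13.7% either. Relative to the median of all genes the count was again 5 lower and 0 higher, against 3.82% of genes lower, 6.46% higher and 10.3% either. Tuba1b was then at -0.325 and Tubb2b at -0.356, both nearer the cut of 0.322 in size than their counting error. With TMM factors (a scaling that balances most genes) the count was 5, with Tuba1b at -0.351. Of all genes 4.59% were then lower and 5.57% higher, so lower genes made up 45.2% of all genes called in place of 74.4%. Scaling without mitochondrial and ribosomal protein genes gave 5 as well, with 5.49% of all genes lower and 5.28% higher. With no filter on level 20.3% of genes were lower and 19.2% higher, and the members' count stayed at 5. Where the mean had to reach 50 CPM, 4 of the 6 genes left were lower, against 7.05% of all genes lower and 5.27% higher.

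Tuba1a had the lowest ratio at -0.89 (-0.96 to -0.82), or 54.0% of control, which placed it 13th from the lowest among 8063 genes. Tuba1c followed at -0.63 (-0.72 to -0.53), or 64.7% of control. Tubb2a was at -0.57 (-0.71 to -0.43), Tubb2b at -0.47 (-0.52 to -0.43) and Tuba1b at -0.44 (-0.48 to -0.41), each outside the central 90% of all genes. Tubb5 had a ratio of -0.17 (-0.19 to -0.15), inside that range and near the median of all genes. Tubb4b was at -0.058 (-0.081 to -0.035), Tubb3 at -0.048 (-0.15 to 0.055) and Tubb6 at -0.022 (-0.12 to 0.078), and with TMM factors these 3 became 0.032, 0.042 and 0.068. No direction is therefore read for Tubb3, Tubb4b and Tubb6.

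**Figure D2:**
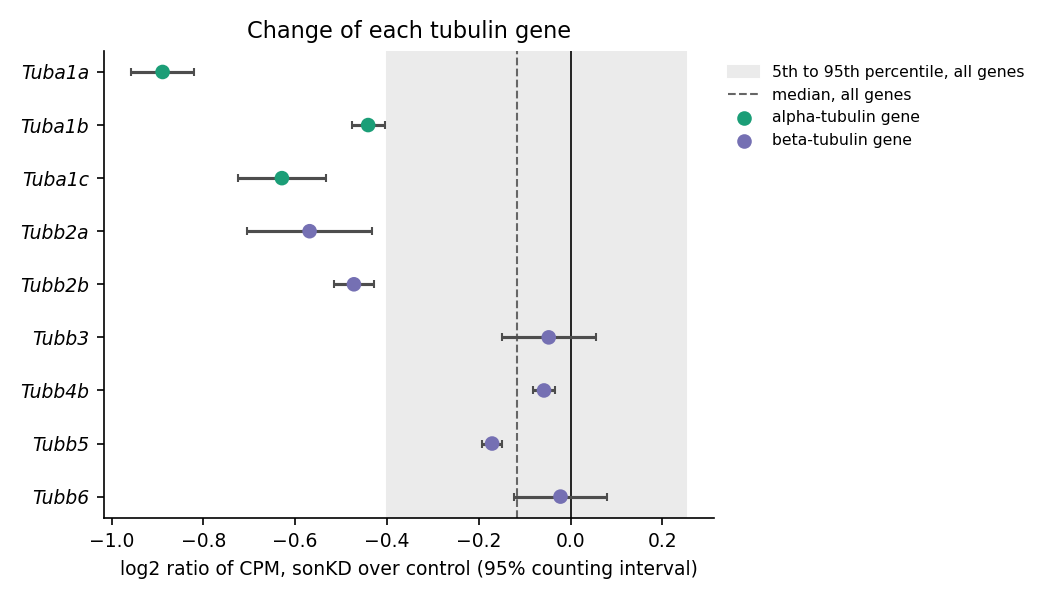
Log2 ratio of CPM, sonKD over control, for each alpha (green) and beta (purple) gene with 95% counting intervals, over the range of all genes whose mean reached 10 CPM (grey band, dashed median). The 3 alpha genes, Tubb2a and Tubb2b lie left of the band, whose edge is at -0.40, and the other 4 beta genes lie inside it, Tubb3, Tubb4b and Tubb6 at values whose sign turned positive with TMM factors.

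The 5 genes with low ratios lie in 2 groups of neighbours. In GENCODE M21 on GRCm38, the build that the submitters' processing notes call mm10, Tuba1b (chr15:98931425-98934565), Tuba1a (chr15:98949837-98953703) and Tuba1c (chr15:99029891-99038110) fall within 107 kb of chromosome 15. Tubb2a (chr13:34074274-34078007) and Tubb2b (chr13:34126748-34130466) fall within 56.2 kb of chromosome 13. The others stand alone, Tubb4b at chr2:25222160-25224702, Tubb3 at chr8:123411424-123422015, Tubb5 at chr17:35833921-35838306 and Tubb6 at chr18:67390717-67402749. Each of the 9 has 4 exons in its longest coding transcript.

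Tubulin genes share coding sequence with one another and with pseudogenes, and their counts rest on how reads from shared stretches were placed. Over the last 500 bases of the longest coding transcript, the share of 50-base stretches also found in another annotated gene was 56.3% for Tuba1a, 63.6% for Tuba1b, 68.3% for Tuba1c, 42.4% for Tubb2a and 35.3% for Tubb4b. It was 0 for Tubb2b, Tubb3, Tubb5 and Tubb6. Over the last 200 bases it was 5.30% for Tuba1c and 0 for the other 8. Over the whole transcript Tubb2b shared 39.3%. Of 21 other genes that share such stretches with a tubulin gene or overlap one, 3 are in the count tables, each under 3 CPM in both libraries. Reads from the remaining 18 were not counted under their own names, and their part in the ratios was not tested.

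The gap was also seen in barcodes of the same libraries that fell outside the cell definition. They share preparation with the cells, so they are no separate check on the gap. In droplets with 100 to 500 UMIs, which carry mostly free RNA, Tuba1a was at 200.1 CPM in control against 105 CPM in sonKD, a log2 ratio of -0.93 (-1.01 to -0.85). The 3 alpha genes together were at -0.61 there and the 6 beta genes at -0.055. Among barcodes with over 10% mitochondrial UMIs, 625 in control and 1056 in sonKD, the alpha genes were at -0.50 (-0.64 to -0.35) and the beta genes at -0.045 (-0.11 to 0.019). Of the lower beta genes, Tubb2b was at -0.27 in the droplets and -0.35 in the barcodes rich in mitochondrial UMIs. Tubb2a was at -0.36 in the droplets but at 0.044 (-0.46 to 0.56) in the latter, on 51 control and 97 sonKD UMIs. The share of free RNA in the cell barcodes was not estimated, and its part in their values was not tested.

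Among the 9 genes, isotype shares shifted from alpha to beta. The 3 alpha genes made up 21.02% of tubulin UMIs in control (20.8 to 21.2) and 16.8% in sonKD (16.6 to 17.1), a difference of -4.17 percentage points (-4.52 to -3.82). Alpha and tubulin UMIs here and below are those of the 9 genes only. They leave out Tuba4a, an alpha gene with 5492 UMIs in control, 3706 in sonKD and a log2 ratio of -0.21. On that count beta UMIs outnumbered alpha UMIs 3.76-fold in control and 4.94-fold in sonKD. Tubb4b had the largest gain in share among the 9, from 29.1% of tubulin UMIs (28.8 to 29.3) to 32.8% (32.5 to 33.2). Tubb5 went from 36.4% to 38.0%, a difference of 1.62 points (1.19 to 2.05). Tubb2b went from 9.44% to 8.005%, Tuba1b from 14.0% to 12.1% and Tuba1a from 4.88% to 3.10%. Tuba1c (2.17% and 1.65%), Tubb2a (1.04% and 0.825%), Tubb3 (1.48% and 1.68%) and Tubb6 (1.53% and 1.77%) were minor in both libraries.

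The order of isotypes was the same in both libraries among the alpha genes counted here and among the beta genes counted here. Within that order, Tubb6 and Tubb3 overlapped in their counting intervals in both libraries. Tuba4a, which is left out, lay below Tuba1a in control (134 against 145 CPM). In sonKD Tuba4a lay above Tuba1a (116 against 78.2 CPM). Among alpha UMIs, Tuba1b held 66.5% in control and 71.8% in sonKD, Tuba1a 23.2% and 18.4%, and Tuba1c 10.3% and 9.81%. The Tuba1c difference of -0.53 points had an interval of -1.16 to 0.10. Among beta UMIs, Tubb5 held 46.1% and 45.7%, a difference of -0.37 points with an interval of -0.86 to 0.12. Tubb4b held 36.8% and 39.5% of beta UMIs, and Tubb2b 11.96% and 9.63%. A share depends on every other member, so a higher share of Tubb4b does not show a higher level.

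**Figure D3:**
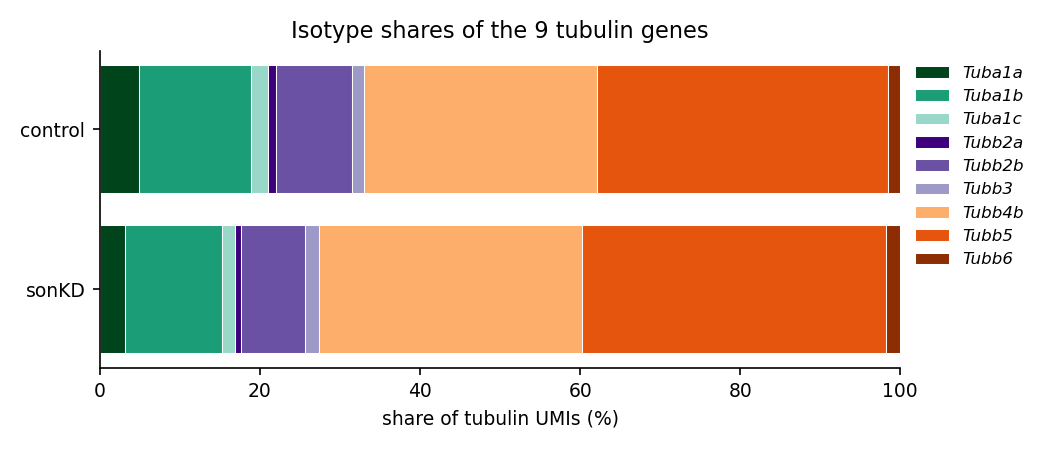
Share of each gene in the UMIs of the 9 tubulin genes, in percent, for the control library (upper bar) and the sonKD library (lower bar). The 3 green alpha segments together shrink from 21.02% to 16.8%, and Tubb4b and Tubb5 together fill most of both bars.

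To relate tubulin to the cell cycle, each cell was thinned to 4000 UMIs, which left 4710 control and 2622 sonKD cells and dropped 268 and 109 shallower ones. Cells of each library were ranked by a score over 53 genes of G2 and M phase, with Tubb4b taken off the usual list, and split into 5 bins of equal size, from bin 1 (lowest) to bin 5 (highest). Of 5 check genes outside that list, Plk1, Ccnb1 and Ccna2 were higher in bin 5 in both libraries. Plk1, a mitotic kinase gene, went from 42.7 to 148 CPM from bin 1 to bin 5 of control and from 18.6 to 127 CPM in sonKD, and the cyclin gene Ccnb1 went from 132 to 240.2 CPM and from 94.3 to 211 CPM. The G1/S cyclin gene Ccne1 had a log2 ratio of bin 5 to bin 1 of -0.25 (-0.46 to -0.039) in control but 0.36 (0.086 to 0.64) in sonKD, so in sonKD it went with the score about as much as Tubb5 did. Cdc25a, another G1/S gene, had -0.22 and -0.19, with intervals that included 0. The bins are ranges of a score and not cell types.

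Tuba1c, Tubb3 and Tubb4b followed the score most closely. Tuba1c stood at 36.1, 51.2, 59.4, 78.0 and 100.3 CPM from bin 1 to bin 5 of control, 2.78-fold higher at the top. In sonKD it stood at 34.3, 27.7, 42.9, 35.8 and 59.2 CPM, 1.73-fold higher at the top, with the increase mainly in bin 5. Tubb3 stood at 27.1, 37.4, 39.3, 50.2 and 59.2 CPM in control and at 34.8, 36.7, 38.6, 48.7 and 58.7 CPM in sonKD. Each step of Tubb3 was upward in both libraries, most of them by less than the counting intervals. Tubb4b stood at 702, 781, 845, 936 and 1010.4 CPM in control and at 595, 750.5, 852, 887 and 980.0 CPM in sonKD, again upward at each step. Tubb4b has far more UMIs than Tubb3, so its steps are the better measured.

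As log2 ratios of bin 5 to bin 1, Tuba1c had 1.47 in control (1.19 to 1.77) and 0.79 in sonKD (0.36 to 1.23). Tubb3 had 1.13 (0.78 to 1.48) and 0.76 (0.33 to 1.19), and Tubb4b had 0.53 (0.45 to 0.60) and 0.72 (0.62 to 0.82). In control 3 of the 9 members, these 3, were higher in bin 5 by a ratio of 0.32 or more and 0 lower, where 16.7% of all genes were higher, 7.45% lower and 24.2% either. In sonKD 6 of 9 were higher, with Tuba1b, Tubb2b and Tubb5 added, and 0 lower, where 24.3% of all genes were higher, 13.3% lower and 37.6% either. The 3 added calls were not kept under every setting. With at most 5% mitochondrial UMIs the sonKD ratios were 0.12 for Tuba1b, 0.039 for Tubb2b and 0.17 for Tubb5, and with a list of late G2 and mitosis genes 0.20, 0.26 and 0.29, all under 0.32. Tuba1b was under 0.32 as well when cells were thinned to 6000 UMIs (0.30), as did Tubb2b at 6000 (0.24) and at 2500 (0.25), and Tubb5 with a minimum of 5000 UMIs (0.319). In control, Tubb2b (0.45), Tubb5 (0.36) and Tubb6 (0.33) passed 0.32 when 10 bins were used. In sonKD, Tubb2a passed it under 3 of the 7 alternatives, at up to 0.59 with thinning to 2500 UMIs, and Tubb6 under 1, at 0.49 with a minimum of 5000 UMIs. The median of all genes was 0.049 in control and 0.084 in sonKD.

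The remaining genes were flatter. Tubb5 went from 948.5 CPM in bin 1 to 1127 CPM in bin 5 of control, a log2 ratio of 0.25 (0.18 to 0.31), and from 775 to 997 CPM in sonKD, 0.36 (0.27 to 0.46). Tuba1b had ratios of 0.17 (0.069 to 0.28) and 0.52 (0.35 to 0.69), and Tubb2b had 0.31 (0.18 to 0.44) and 0.48 (0.26 to 0.69). In both libraries most of the Tuba1b step lay between bins 1 and 2, from 368 to 417.5 CPM in control and from 229 to 299 CPM in sonKD. Tuba1a stayed between 137 and 162 CPM over the bins of control and between 69.7 and 86.8 CPM in sonKD, so its 2 ranges did not overlap. The intervals of the Tubb2a and Tubb6 ratios included 0 in both libraries, with Tubb2a at 0.066 and 0.26 and Tubb6 at 0.16 and -0.014.

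**Figure D4:**
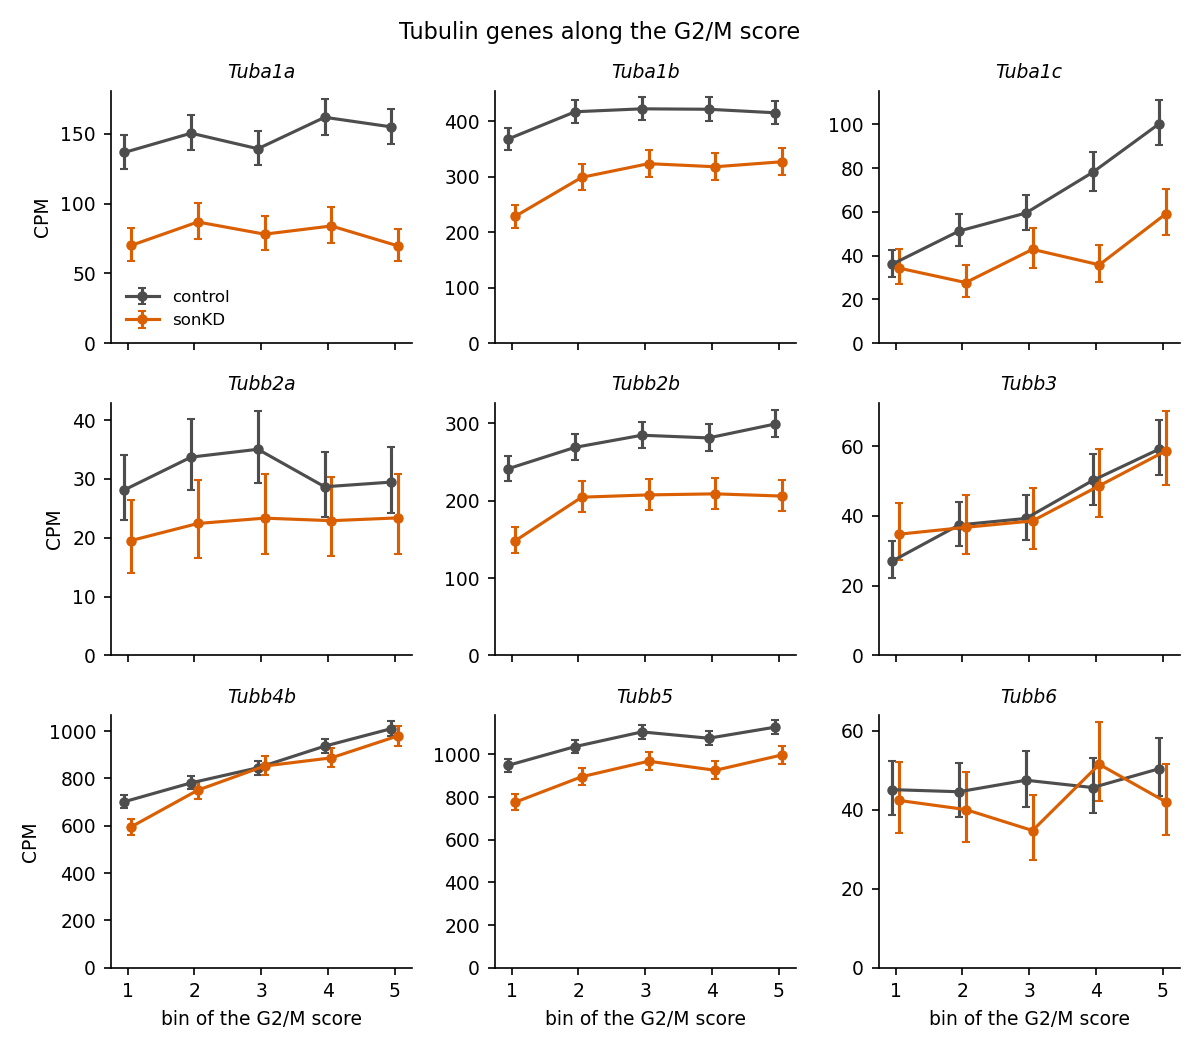
Level of each tubulin gene (CPM of cells thinned to 4000 UMIs, linear axis from 0) by bin of the G2/M score, from lowest (1) to highest (5), in control (grey) and sonKD (orange), with 95% counting intervals. Bins were cut in each library apart. Tubb3 and Tubb4b climb along the score in both libraries and Tuba1c does so in control, while Tuba1a keeps a gap between the libraries in every bin.

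Other measures moved with the score as well. The median mitochondrial share was 3.76% in bin 1 of control and 3.57% in bin 5, and 4.59% and 3.98% in sonKD. Median depth before thinning went from 7105 to 8787.5 UMIs in control and from 9988 to 12976 in sonKD. Malat1, a nuclear RNA, went from 2281 to 3427 CPM in control and from 2213 to 2835 CPM in sonKD. With at most 5% mitochondrial UMIs the ratio of all 9 genes together was 0.26 in control and 0.26 in sonKD, in place of 0.36 (0.32 to 0.40) and 0.50 (0.45 to 0.56). The part of cell quality in the flatter trends was not tested. Across the 7 alternatives tried, Tuba1c stayed between 0.94 and 1.57 in control and between 0.51 and 1.06 in sonKD, Tubb3 between 0.74 and 1.31 and between 0.60 and 1.21, and Tubb4b between 0.46 and 0.69 and between 0.49 and 0.96.

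Splitting the cells of each library at its own medians of the S phase score and the G2/M score gave 4 windows. Among cells low in both scores, Tuba1c was at 45.2 CPM in control, against 47.0 CPM where only the S score was high, 82.8 CPM where both were high and 84.8 CPM where only the G2/M score was high. Tubb4b gave 750 and 758 CPM in the windows with a low G2/M score and 938 and 971 CPM in those with a high one. In sonKD the windows of the same name, cut at its own medians, gave 28.8, 32.6, 45.6 and 52.7 CPM for Tuba1c and 657, 749, 908 and 937 CPM for Tubb4b. For Tuba1b they gave 387, 405, 438 and 409 CPM in control, and 246, 307, 336 and 310 CPM in sonKD. Tubb2b gave 235, 287, 306 and 271 CPM in control, and 156, 208, 211 and 205 CPM in sonKD. In both libraries the cells low in both scores thus had the lowest level of Tuba1c, Tubb4b, Tuba1b and Tubb2b. Their counting intervals were apart from all other windows for Tubb4b, Tuba1b and Tubb2b in sonKD, and for Tubb2b alone in control. In sonKD the other 3 windows lay close together for Tuba1b and Tubb2b. In control, Tuba1c and Tubb4b differed between windows of low and high G2/M score by more than the counting intervals, and their pairs of windows that differ only in the S score overlapped in those intervals. Tubb2b in control was higher where the S score was high, at either level of the G2/M score. In sonKD, Tubb4b differed along the S score where the G2/M score was low (657 against 749 CPM), and its intervals overlapped where it was high. In control 47.2% and in sonKD 48.7% of cells lay within 0.05 of a cut, so the windows overlap in kind.

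Scores and bins were made for each library apart, so bins of equal number are equal ranks and not equal ranges of the score. Bin 1 reached up to 0.033 in control and -0.0024 in sonKD, and bin 5 began at 0.289 and 0.258. With that limit, the libraries differed in every bin for Tuba1a. Its log2 ratio of sonKD over control ranged from -1.15 to -0.79 over the 5 bins. For Tuba1b the range was -0.69 to -0.34 and for Tubb2b -0.71 to -0.39. Tuba1c had -0.074 (-0.51 to 0.35) in bin 1 and between -1.12 and -0.47 in the others. The difference of its bin 5 to bin 1 ratio, sonKD minus control, was -0.69 (-1.21 to -0.16), which has no replicate check. The size of this difference depended on the setting. With thinning to 2500 UMIs the Tuba1c ratios were nearly equal, at 1.04 in control and 1.02 in sonKD. With 10 bins they were 1.57 and 0.74. The sonKD ratio was the lower one under each of the 7 alternatives. Within the bins, the log2 ratio of sonKD over control ranged from -0.24 to 0.013 for Tubb4b and from -0.044 to 0.36 for Tubb3. The alpha share of tubulin UMIs moved little along the score, at 21.4% in bin 1 and 20.7% in bin 5 of control, and 17.1% and 16.5% in sonKD. The level of the 3 alpha genes together rose, from 541 to 671 CPM in control and from 333 to 456 CPM in sonKD. As log2 ratios these were 0.31 (0.23 to 0.40) and 0.45 (0.31 to 0.60), and 0.19 and 0.13 with at most 5% mitochondrial UMIs. Tubb4b went from 27.7% to 31.1% of tubulin UMIs in control and from 30.6% to 35.5% in sonKD. Tubb5 went the other way, from 37.4% to 34.7% in control and from 39.8% to 36.1% in sonKD. Within the alpha genes, Tuba1c went from 6.67% to 14.95% of alpha UMIs in control and from 10.3% to 12.97% in sonKD.

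Promoter sequences are shown because Tuba1c and Tubb4b followed the G2/M score and Tubb5 followed it less. RefSeq windows on GRCm38.p6 were at hand for 7 of the 9 genes, all but Tubb2b and Tubb6. The 250 bases before the RefSeq start of each gene were searched on both strands for 3 motifs. CCAAT is the box bound by the factor NF-Y. TTTGAA is the core of the cell cycle genes homology region known from promoters of G2 and M phase genes. TATAAA is the TATA box. RefSeq starts can differ from the ends of the GENCODE spans given above. The windows of Tuba1a, Tuba1b and Tubb3 lay partly inside those spans, with the CCAAT matches of Tuba1a and Tubb3, and that of Tubb5 by a few bases. No matches overlapped in the windows of the 7 genes. Tubb4b lies on the minus strand with its window at chr2:25224703-25224952, Tuba1c on the plus strand at chr15:99029641-99029890 and Tubb5 on the minus strand at chr17:35838302-35838551. Each is written 5′ to 3′ along its gene, with matches to the 3 motifs in capitals.
Tubb4b: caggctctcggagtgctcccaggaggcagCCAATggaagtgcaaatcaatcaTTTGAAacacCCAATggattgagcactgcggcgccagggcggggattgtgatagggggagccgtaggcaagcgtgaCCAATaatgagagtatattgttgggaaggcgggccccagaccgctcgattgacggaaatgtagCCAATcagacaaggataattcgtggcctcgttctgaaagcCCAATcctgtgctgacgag
Tuba1c: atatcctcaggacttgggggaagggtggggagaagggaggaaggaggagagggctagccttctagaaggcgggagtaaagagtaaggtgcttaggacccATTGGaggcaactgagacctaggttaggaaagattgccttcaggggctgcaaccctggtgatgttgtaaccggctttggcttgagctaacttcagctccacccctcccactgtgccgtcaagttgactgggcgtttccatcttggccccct
Tubb5: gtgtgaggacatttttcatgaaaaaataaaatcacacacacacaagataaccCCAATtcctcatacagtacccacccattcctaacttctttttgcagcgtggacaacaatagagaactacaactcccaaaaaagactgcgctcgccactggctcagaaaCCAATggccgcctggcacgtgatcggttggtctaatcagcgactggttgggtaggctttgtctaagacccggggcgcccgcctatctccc

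Tubb4b held 5 CCAAT boxes, starting 221, 188, 122, 59 and 19 bases before the gene start, and 1 TTTGAA starting 198 bases before it. Among 32851 promoter windows of this length, 33.8% held CCAAT at least once, 10.1% at 2 or more places, 16.0% held TTTGAA, and 1.53% held TTTGAA with 2 or more CCAAT boxes. Tubb5 held CCAAT starting 198 and 90 bases before its start. Tuba1c and Tubb3, which followed the score, held CCAAT once each, on the opposite strand and starting 151 and 77 bases before the RefSeq start. Tuba1a, whose log2 ratio of bin 5 to bin 1 was 0.18 (0.0080 to 0.36) in control and -0.0071 in sonKD, held it once at 176. Tuba1b held none of the 3 motifs, and Tubb2a alone held TATAAA, at 29 bases, a motif in 12.4% of windows. These matches are letters in a window and not shown sites.

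Per cell, the 9 genes gave a median of 11 UMIs in thinned control cells and 10 in thinned sonKD cells. The 5th and 95th percentiles were 5 and 20 in control and 3 and 17 in sonKD. Tubb5 was detected, with 1 UMI or more, in 96.9% of control cells and 95.1% in sonKD, and Tubb4b in 93.8% and 92.4%. Detection of Tuba1a was 42.7% (41.2 to 44.1) in control against 25.9% (24.2 to 27.6) in sonKD, and without thinning 63.3% and 55.2%. Tuba1c was found in 22.3% and 14.5%, and Tubb2b in 63.1% and 51.1%. The shares of Tubb3, 14.6% (13.6 to 15.6) and 15.1% (13.7 to 16.5), and of Tubb6, 16.8% (15.7 to 17.9) and 15.1% (13.8 to 16.6), overlapped. No cell type without these genes was at hand as a background for such shares.

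Variation between cells was modest. The variance over the mean of UMIs in thinned cells, which is 1 for counting noise alone, was 1.48 in control and 1.44 in sonKD for Tubb4b and 1.42 and 1.27 for Tubb5. Genes of like level had medians of 1.19 and 1.19 for Tubb4b and 1.20 and 1.22 for Tubb5. Tubb4b was higher than 92% and 90.6% of such genes, and Tubb5 than 76% and 61.0%. Tuba1a gave 1.17 and 1.08, higher than 88.4% and 72.5%. Tuba1b gave 1.17 and 1.16 and Tubb2b 1.18 and 1.15. Tubb3 gave 1.16 and 1.13, higher than 96.5% of the 1030 genes of like level in control and 92.6% of 1019 in sonKD. Tubb2a, at 0.98 and 1.00, did not exceed counting noise by any margin. Of the 36 pairs of members, the highest Pearson r over cells was that of Tubb4b with Tubb5, 0.18 over 4710 control cells and 0.19 over 2622 sonKD cells. Tuba1b with Tubb5 came next at 0.14 and 0.15. The other pairs lay lower, with a median over all pairs of 0.038 and 0.025, and in counts this sparse nothing is read from them. Among 1202 genes with at least 0.5 UMI per thinned cell, those among the 10 most like the tubulin sum in both libraries were H2afz (a histone variant gene; r of 0.32 in control and 0.35 in sonKD), Hspa8 (a chaperone gene; 0.27 and 0.27), Actg1 (an actin gene; 0.25 and 0.25) and Aldoa (a glycolysis gene; 0.24 and 0.25). The median r of all 1202 genes was 0.040 in both. Cells of a library share preparation and depth, so these values are descriptions.

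The other genes of the pathway came from 7 lists, 1 of further tubulin genes and the others of genes that act on tubulin. Of 71 found, 57 reached a mean of 10 CPM. Of these, 5 were lower in sonKD by a log2 ratio of 0.32 or more (8.77%) and 0 higher, beside 10.2% and 3.5% of all genes. The 8 subunits of the CCT chaperonin, which folds tubulin, had ratios between -0.19 and -0.11, with Cct8 at -0.19 and Cct6a at -0.18, and a median of -0.15 beside -0.12 for all genes. Prefoldin, which hands unfolded tubulin to CCT, had a median of -0.10 over 6 subunits, with Pfdn4 at -0.38 and Vbp1 at -0.35 both called lower. The list of folding cofactors and related genes had a median of -0.055 over 7 genes. Tbca, the cofactor that holds beta-tubulin, was at 0.28 (0.23 to 0.33) and Tbcel, a relative of a cofactor gene, at 0.19, neither past 0.32.

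The tubulin mRNA autoregulation list had ratios between -0.30 and 0.12, with a median of -0.11 over 6 genes and 0 called. Cnot11 was at 0.12 and Cnot8 at 0.086. Ttc5, named after its value was seen because it reads nascent tubulin, was at 31.5 CPM in control against 29.3 CPM in sonKD, a ratio of -0.11 (-0.23 to 0.015). The tubulin modifying enzymes had a median of -0.14 over 10 genes and 0 called, with Sirt2, a deacetylase gene, at -0.27 and Svbp, which partners the vasohibin detyrosinases, at 0.26. The microtubule binding, assembly and severing list had a median of -0.15 over 18 genes, with 3 lower and 0 higher. Map7d1, a microtubule-associated protein gene, was at -0.45 (-0.63 to -0.28), and Stmn1, which encodes the dimer-binding protein stathmin, was at 0.12. Of 11 other tubulin genes only Tuba4a and Tubg1 reached 10 CPM, with a median of -0.24 beside -0.12 for all genes. Tuba4a, a further alpha gene, was at 134 CPM in control against 116 CPM in sonKD, a ratio of -0.21 (-0.28 to -0.15), and the gamma-tubulin gene Tubg1 was at -0.26 (-0.36 to -0.16). Tuba4a was thus near Tuba1a in level in control and above it in sonKD.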

How the data were processed

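The authors deposited UMI counts per gene and barcode made with Cell Ranger 7.1.0, per the file headers, and mm10 is the build in the submitters' processing notes. Annotation and treatment of intronic reads are not given in the sources used here. The count tables list all barcodes, and total counts were 71046373 UMIs in control and 60352438 in sonKD. Members and lists were chosen with earlier results of these data known.

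Counts were summed over the cells of each library and scaled to CPM. Genes whose mean reached 10 CPM were compared, with counts under 3 set to 3 in ratios. Intervals are at 95%: levels carry exact Poisson intervals, ratios exact conditional binomial ones, and shares those of Clopper and Pearson. Differences of shares or ratios combine both intervals as a root sum of squares. The functions were tested on simulated data. With 1 library per group no test was made. Scrublet in scanpy 1.11.5 called 0.0603% of control and 0.0366% of sonKD barcodes as doublets, under the 0.5% set for a working call, so none were removed and removal by rate was an alternative. Scores came from scanpy, and TMM factors from edgeR 4.0.16. The named genes are the members, the 2 genes of each list farthest from the median of all genes, and the genes most like the tubulin sum.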

Additional observations from a re-analysis of the deposited data

Results flagged for a closer look

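Tuba1a and Tubb6 had opposite signs in the libraries for the log2 ratio of the highest to the lowest of 5 bins of the G2/M score, which drew attention to them. Tuba1a had 0.18 (0.0080 to 0.36) in control and -0.0071 (-0.35 to 0.33) in sonKD. Tubb6 had 0.16 (-0.15 to 0.47) in control and -0.014 (-0.46 to 0.43) in sonKD. The difference between the libraries was not tested, and its counting interval included 0 for both genes, at -0.57 to 0.19 for Tuba1a and -0.71 to 0.36 for Tubb6.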

How the results depend on the processing

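For the level of all 9 genes, a log2 ratio of -0.23 in the report, TMM factors gave -0.14, CPM without mitochondrial and ribosomal protein genes -0.16 and a minimum of 5000 UMIs -0.25. Under those first 2 scalings Tubb4b changed sign, to 0.032 and 0.016. For the highest against the lowest bin of the G2/M score, 0.36 in control and 0.50 in sonKD, a limit of 5% mitochondrial UMIs gave 0.26 and 0.26 and turned Tuba1a in control to -0.016. Using 10 bins gave 0.48 and 0.71, the list of late G2 and mitosis 0.41 and 0.43, and thinning to 6000 UMIs 0.25 in control. Once the mean had to reach 50 CPM, only Cnot1 was left of the tubulin mRNA autoregulation list, at -0.22. The modifying enzymes gave no value there. Apart from where an alternative divides by another total or enters fewer genes or cells by construction, the cause was not tested. The alpha share difference stayed between -4.24 and -4.14 points under its 3 alternatives. No paired analysis was possible because each group held 1 sample and no test was made. Depth limits Tubb2a, Tubb3, Tubb6 and Tuba1c most, with means between 0.0892 and 0.260 UMI per thinned cell.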
